A study of Rattus norvegicus with 12 samples.

Results

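The ovarian transcriptome of rats treated with mogroside V (MV) after induction of polycystic ovary syndrome (PCOS) was compared with that of untreated control rats, gene by gene. All 13420 genes that averaged 1 FPKM or more (fragments per kilobase of gene, scaled to library size) over the 8 libraries of these groups were included, out of 19730 genes in the series, whose 12 libraries come from 12 female wild-type Sprague Dawley rats. Control rats (n = 4) were fed standard food and received no drug. PCOS-MV rats (n = 4) received letrozole, an aromatase inhibitor, at 1 mg/kg/day together with a high-fat diet (HFD) for 30 days, and then MV by oral gavage at 600 mg/kg/day for 30 days. PCOS rats (n = 4) received letrozole and the HFD without MV and were used as the reference for how far a gene had moved. Values of the PCOS-MV libraries are given as values after MV. The age given for all groups was postnatal week 15. No control rats were given MV, so in PCOS-MV vs Control the effects of letrozole, the HFD and MV cannot be told apart. Each library came from bulk ovary, in which fewer cells of a type and less RNA per cell cannot be told apart.

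Letrozole blocks the conversion of androgens to estrogens, and in rats it gives polycystic ovaries with few corpora lutea and thickened theca. MV is a sweet triterpene glycoside of the fruit of Siraitia grosvenorii. The ovary holds granulosa cells around the oocyte, androgen-producing theca cells, luteal cells that make progesterone after ovulation, and a dense blood vessel network. It lies in a fat pad beside the oviduct, and it has a circadian clock of its own, in which transcription factors repress their own genes with a daily period. The question was which functions were still away from the control level after MV, which had passed beyond it, which had come back, and where the spread between rats left this undecided.

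The 8 libraries were alike in total, with 339830 to 373758 FPKM summed over genes and 17576 to 18247 genes above 0. From the steps between the lowest FPKM values, and within a preset range, the depth was estimated at about 31900000 to 36900000 fragments per library. At that depth 29.7% to 34.3% of the low values lay within 0.02 of a whole number of fragments. Evenly spread values would give 4%, but the depth was itself fitted to low values, which the 4% does not allow for. The markers of granulosa, luteal and theca cells were present in every library, and no marker of any of the 11 cell type lists was at 0 in all 12 libraries. Control replicate 3 stood apart from the other control libraries, with correlations of log2(FPKM + 1) of 0.916 to 0.946 with them over the genes tested. It was also the library with the highest level of ciliated oviduct epithelium markers. Over the 28 such markers found, FPKM summed to 219.4 in Control replicate 3, to 10.6, 17.8 and 48.0 in the other control libraries and to 11.9 to 16.9 in the PCOS-MV libraries. Of the 12 of them tested, 11 had a negative estimate in PCOS-MV vs Control, against 6869 of 13420 over all genes tested. At an unadjusted p under 0.05, 0 were higher or lower. The median difference was -1.08, or -0.50 (with 1 gene lower) without this library. Their part in the results was not tested, and the counts of a list that change by more than 1.5 times without this library, and the named differences that rest on it, are given with and without it.

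In PCOS-MV vs Control, 1 of 13420 genes was called higher and 0 were called lower (limma on log2(FPKM + 1), Benjamini-Hochberg adjusted p under 0.05), which is 0.00745% of the genes tested. At an unadjusted p under 0.05, 592 genes (4.41%) lay above and 552 (4.11%) below control after MV. The groups did not overlap for 373 genes higher (2.78%) and 322 genes lower (2.4%) in the PCOS-MV group. The counts at an unadjusted p depended on single libraries: they were 300 higher and 303 lower without PCOS-MV replicate 4, 340 and 348 without PCOS-MV replicate 2, and 381 and 360 without Control replicate 4. The count of higher genes was 995 without PCOS-MV replicate 3, and that of lower genes was 949 without Control replicate 1. Leaving out 1 library gave 1 or 2 genes called higher and 0 to 4 called lower, the most without Control replicate 2. In PCOS vs Control, by comparison, 1500 genes (11.2%) were called higher and 2105 (15.7%) lower. The genes were the same 13420, so genes expressed mainly in PCOS could be missing from the higher count. The median size of the log2 difference was 0.22 in PCOS vs Control, against 0.12 in PCOS-MV vs Control. A difference of at least 1 on the log2 scale was estimated for 46 genes higher and 177 genes lower in the PCOS-MV group, of which 10 and 64 had groups that did not overlap.

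The gene called has the symbol Senp1, which the file gives to another gene too (its identifier is ENSRNOG00000054297, chromosome 7 from 139523690 to 139542461 in the authors' coordinates). Senp1 encodes a protease that removes SUMO from proteins. It was listed at 0 in all 4 control libraries and at 4.78, 3.65, 3.33 and 3.84 FPKM after MV. Its log2 difference was 2.28 (SE 0.13, adjusted p = 0.000761 from limma), a value that depends on the pseudocount. In the PCOS libraries it was listed at 3.71, 4.27, 3.92 and 0 FPKM. The other gene of that name (ENSRNOG00000022260) lies on the same chromosome from 139630515 to 139675245, and it was at 5.003 to 7.43 FPKM in the control libraries and 4.69 to 5.88 FPKM after MV. The groups overlapped for that copy. Copies of similar sequence can share reads, and 132 of the genes tested had a value of 0 in at least 1 of the 8 libraries, so the zero values of Senp1 were not read as absence of the transcript. The call was lost in 1 model over all 12 libraries (adjusted p = 0.119 from limma).

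To describe return, each gene called in PCOS vs Control with a change of at least 1 on the log2 scale was placed by the 95% interval of its difference between PCOS-MV and Control. There were 854 such genes, 376 higher and 478 lower in the PCOS group. For 279 of them (32.7%) the whole interval lay within 0.5 of the PCOS change on either side of the control level. Another set of 174 genes (20.4%) stayed apart, with an interval on the PCOS side that did not reach 0. A further 11 genes (1.29%) passed beyond the control level, with an interval wholly on the far side. Of the genes that stayed apart, 29 were also among the 279 that came back to within 0.5, and no gene that passed beyond was. The remaining 419 genes (49.1%) were undecided, their interval being too wide for any of these. Both differences use the same 4 control libraries, and these intervals are not adjusted for the number of genes. The 854 genes were drawn from genes kept by their mean FPKM over Control and PCOS-MV, without the PCOS libraries. Genes expressed mainly in PCOS and low in the other groups could thus be left out, while genes lost in PCOS were kept. The counts by direction and the share that came back depend on this filter, and its part was not tested. The median gene of the 854 was at 14.6% of its PCOS change, and the median of those that stayed apart was at 45.0%. The number that stayed apart was 115 without PCOS-MV replicate 4 and 287 without PCOS-MV replicate 3, and the number that passed beyond was 30 without the latter and 29 without PCOS-MV replicate 1.

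Of the 376 genes higher in the PCOS group, 175 came back to within 0.5 of their change, 69 stayed apart, 3 passed beyond and 149 were undecided. Of the 478 lower in the PCOS group, 104 came back, 105 stayed apart, 8 passed beyond and 270 were undecided. The 2 directions were not tested against each other. The median margin, meaning the distance from the estimate to either end of its 95% interval, was 0.50 for the former and 0.65 for the latter on the log2 scale. Among the 174 genes that stayed apart, 114 were also called in PCOS-MV vs PCOS and were at a median of 36.1% of the PCOS change. The other 60 were not called against PCOS and were at a median of 72.2%.

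Genes with large PCOS changes were among those that came back, and the 4 largest in each direction are given here. Insl3, which encodes the insulin-like peptide 3 of theca cells, was at 8.84, 1.76, 4.00 and 8.20 FPKM in the control libraries and at 14.5, 6.27, 4.91 and 5.87 FPKM after MV. The groups overlapped, and the log2 difference was 0.47 (95% interval from -0.57 to 1.51) where the PCOS change had been 7.43. Ces1d, a carboxylesterase, differed from control by -0.47 (SE 0.47) after a PCOS change of 5.72. Ass1, the urea cycle enzyme that makes argininosuccinate, differed by -0.44 (SE 0.34) after a PCOS change of 5.20. Adh1, an alcohol dehydrogenase that also acts on retinol, came back only in part. It was at 8.65, 13.4, 12.1 and 2.26 FPKM in the control libraries, at 18.4, 24.6, 11.7 and 30.5 FPKM after MV and at 561 to 927 FPKM in the PCOS libraries, so its log2 difference of 1.26 (95% interval from 0.15 to 2.37) was small beside the 6.34 of PCOS vs Control.

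Among genes lower in PCOS, the largest that came back were Vtcn1, Syt13, Sdc1 and Chrnb4. Vtcn1, which encodes an immune checkpoint protein of the B7 family, was at 65.0 to 107 FPKM in the control libraries and at 83.1, 65.7, 247 and 87.8 FPKM after MV. PCOS-MV replicate 3 was the highest of the 8, and the groups overlapped. Syt13, a synaptotagmin, was at 36.9 to 73.1 FPKM in control and at 36.8, 27.4, 80.1 and 34.7 FPKM after MV. The nicotinic receptor subunit gene Chrnb4 differed by -0.63 (SE 0.34), against -3.21 in the PCOS group. Sdc1, which encodes the heparan sulfate proteoglycan syndecan 1, differed by -0.75 (SE 0.33), and its interval did not reach 0.

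Several genes stayed part of the way between control and PCOS. Tmem176a, which encodes a membrane protein of antigen-presenting cells, was at 35.7, 32.9, 25.1 and 28.4 FPKM in the control libraries and at 55.7, 63.1, 68.9 and 68.1 FPKM after MV. All PCOS-MV values were above all control values, with a log2 difference of 1.05 (SE 0.12, adjusted p = 0.114 from limma) against 2.41 in the PCOS group. The sodium leak channel gene Nalcn was at 1.19 to 2.08 FPKM in control, 2.77 to 3.35 FPKM after MV and 12.1 to 17.1 FPKM in the PCOS group. Its remaining difference was 0.71 (SE 0.13, adjusted p = 0.369 from limma). Kcng2, a potassium channel subunit gene, was at 9.06 to 12.2 FPKM in control and at 15.0 to 19.5 FPKM after MV. Igfbp2, an insulin-like growth factor binding protein gene, lay 0.61 above control (SE 0.15) after a PCOS change of 3.08, at 28.2 to 42.2 FPKM in control, 45.2 to 58.1 FPKM after MV and 223 to 348 FPKM in the PCOS group. Lrrn4, a gene of mesothelium and ovarian surface epithelium, was at 20.3 to 38.7 FPKM in control and at 40.9 to 81.8 FPKM after MV, with no overlap. On the lower side, Cxadr, which encodes a cell junction protein, was at 19.7 to 25.2 FPKM in control, 12.3 to 16.6 FPKM after MV and 8.43 to 12.3 FPKM in the PCOS group.

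Several genes of fat cells were below control after MV as they were in PCOS, while others of the list were not. Of 14 tested adipocyte markers, 8 were lower and 0 were higher at an unadjusted p under 0.05, where 4.11% of all genes tested were lower. None was called after adjustment. For 6 markers every PCOS-MV value lay below every control value, as was the case for 2.4% of all genes tested. The median log2 difference of the list was -0.56, beside -0.0047 over all genes tested, and it was -1.005 in PCOS vs Control. Adipoq, which encodes the fat cell hormone adiponectin, was at 15.3, 3.68, 26.0 and 7.93 FPKM in the control libraries, at 0.845, 1.56, 1.70 and 0.987 FPKM after MV and at 0.654, 2.95, 1.40 and 1.07 FPKM in the PCOS libraries. Its log2 difference from control was -2.38 (SE 0.48, adjusted p = 0.44 from limma) in the PCOS-MV group and -2.29 in the PCOS group. The lipid droplet protein gene Plin1 gave -1.43 (SE 0.27, adjusted p = 0.369 from limma) and -1.44 in the same groups. Cfd, the adipsin gene, was at 55.5, 19.6, 47.2 and 32.5 FPKM in control and at 13.7, 12.5, 15.0 and 9.45 FPKM after MV.

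Other lipid genes are given with both differences side by side. Car3, a carbonic anhydrase abundant in fat, differed from control by -2.57 (SE 0.52) in the PCOS-MV group and by -2.62 in the PCOS group. Thrsp, which promotes fatty acid synthesis, differed by -2.04 (SE 0.56) and -1.94. Cidec, a lipid droplet fusion gene, differed by -1.69 (SE 0.36) and -1.73. Among markers named after their values were seen, Trarg1 (0.446 to 0.917 FPKM in the PCOS-MV and 1.06 to 3.09 FPKM in the control group) and Pck1 did not overlap either. Fabp4, a fatty acid carrier that endothelium also expresses, went another way. It was at 8.85 to 27.5 FPKM in control and at 3.63, 33.8, 29.3 and 12.2 FPKM after MV, with 1.28 to 2.87 FPKM in the PCOS group. The control libraries differed among themselves: the mean of the adipocyte list was 3.34, 2.502, 3.51 and 2.78 on the log2(FPKM + 1) scale in them, and 2.16, 2.40, 2.49 and 2.23 in the PCOS-MV libraries. Without Control replicate 3, 6 of the 14 markers were lower at an unadjusted p under 0.05, and the difference of Adipoq was -1.97. The amount of fat tissue dissected with each ovary is not given in the labels, and its part was not tested.

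**Figure D1:**
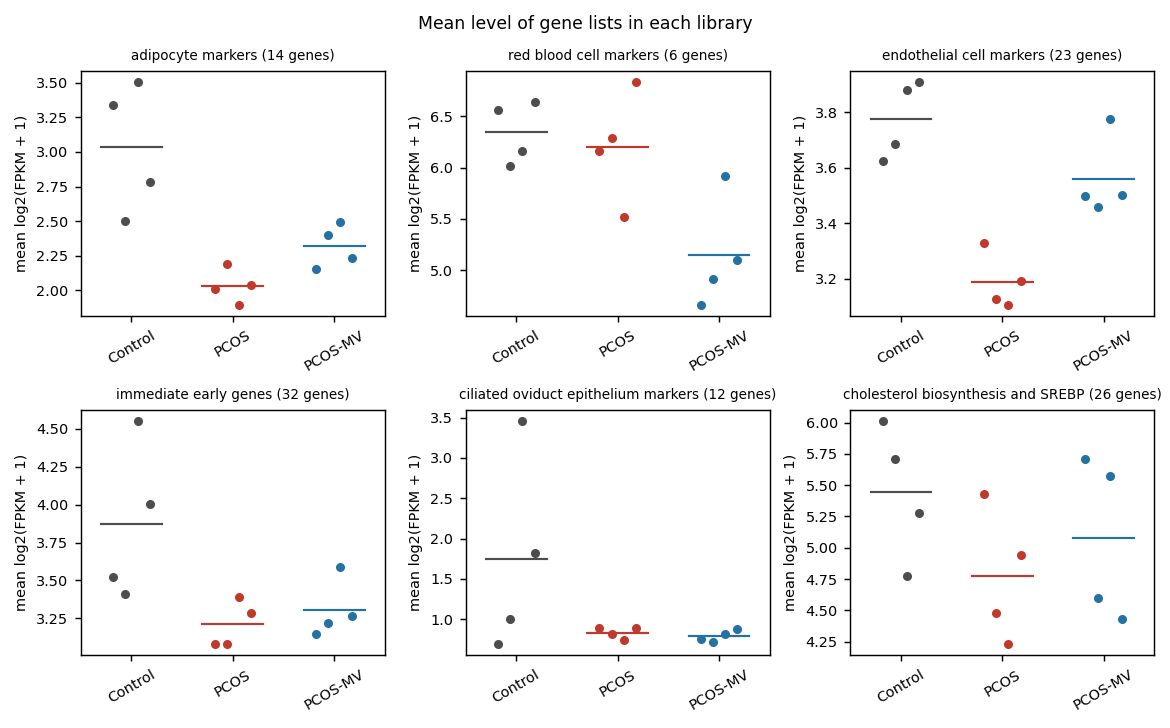
Mean log2(FPKM + 1) over the tested genes of 6 lists in each library. Points are single libraries (4 per group), lines are group means, and the axes do not start at 0. PCOS-MV libraries lie between 2.16 and 2.49 for adipocyte markers, below all control libraries, and Control replicate 3 is highest, at 3.46, for ciliated oviduct epithelium markers.

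Single genes of mast cells, plasma cells and epithelium were also among the largest differences. Mcpt1l1, a mast cell protease gene, was at 3.54, 2.57, 4.31 and 2.34 FPKM in the control libraries and at 0.332, 0.679, 0.314 and 0.111 FPKM after MV. The log2 difference was -1.62 (SE 0.19, adjusted p = 0.114 from limma), and in 1 model over all 12 libraries the gene was called lower (adjusted p = 0.0247 from limma). In the PCOS group the difference was -1.52. Jchain, the joining chain of secreted antibodies, was at 10.2, 11.6, 95.9 and 11.9 FPKM in control, with Control replicate 3 far above the rest, and at 4.40 to 6.75 FPKM after MV. Without that library its difference moved from -1.62 to -0.88. Plet1, an epithelial gene, was highest in the same library, and its difference of -2.23 moved to -1.71 without it.

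Genes of the circadian clock differed from control in both directions after MV. Of 22 tested clock genes, 3 were higher and 7 lower at an unadjusted p under 0.05, against 4.41% and 4.11% of all genes tested, and none was called after adjustment. Groups did not overlap for 2 of the former and 5 of the latter, against 2.78% and 2.4% of all genes tested. In the mammalian clock the proteins BMAL1 (encoded by Arntl) and CLOCK or NPAS2 activate genes through E-boxes, among them the Per genes, Nr1d1 and Nr1d2. The REV-ERB proteins encoded by Nr1d1 and Nr1d2 repress Arntl and Nfil3, and Dbp, Tef and Hlf encode D-box activators.

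To show these elements, the 250 bases before the start of genes of the list are printed from RefSeq for build GRCr8, with the element in capitals. The promoter table held 17 of the 22 clock genes. An E-box (CACGTG, which reads the same on both strands) lay in the windows of 4 of the 17, Nr1d1, Tef, Bhlhe40 and Bhlhe41, and in 5.59% of all 33469 windows. The REV-ERB and ROR element (TAGGTCA after A, A and any base, on either strand) lay in the window of 1 of the 17, Arntl (Bmal1 in RefSeq), and in 0.206% of all windows. A D-box (TTANGTAA on either strand) lay in that of 1, Per2, and in 2.04% of all windows. Clock genes were counted by gene and the background by window. A gene can have more than 1 window, so the shares of windows are not those to be awaited for genes. No printed element overlaps another. The windows below are those of Arntl (chr1:176766078-176766327, plus strand), Nr1d1 (chr10:84229455-84229704, minus strand, 1 of 2 windows for the gene) and Tef (chr7:115206577-115206826, plus strand).
Arntl: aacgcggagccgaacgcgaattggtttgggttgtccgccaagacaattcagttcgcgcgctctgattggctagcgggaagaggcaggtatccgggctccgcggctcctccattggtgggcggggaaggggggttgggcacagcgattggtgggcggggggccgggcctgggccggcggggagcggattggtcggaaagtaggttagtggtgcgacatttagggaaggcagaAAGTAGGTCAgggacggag
Nr1d1: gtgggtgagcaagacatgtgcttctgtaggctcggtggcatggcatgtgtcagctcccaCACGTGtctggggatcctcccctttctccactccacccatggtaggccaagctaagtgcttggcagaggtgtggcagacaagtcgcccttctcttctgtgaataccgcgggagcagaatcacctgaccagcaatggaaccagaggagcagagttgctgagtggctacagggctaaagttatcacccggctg
Tef: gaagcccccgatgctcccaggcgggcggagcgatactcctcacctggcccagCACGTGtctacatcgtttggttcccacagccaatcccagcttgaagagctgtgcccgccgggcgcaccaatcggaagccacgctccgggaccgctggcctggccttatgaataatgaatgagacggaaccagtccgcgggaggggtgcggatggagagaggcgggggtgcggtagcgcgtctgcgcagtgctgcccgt
The element begins 19 bases before the start in Arntl, 191 in Nr1d1 and 198 in Tef. These matches are descriptions of the letters only.

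The REV-ERB genes were low in all 4 PCOS-MV libraries. Nr1d1 was at 40.2, 34.8, 40.8 and 40.4 FPKM in the control libraries, at 22.0, 8.71, 12.2 and 13.3 FPKM after MV and at 32.2, 23.2, 33.5 and 31.3 FPKM in the PCOS libraries. The PCOS-MV values lay below all others, with a log2 difference from control of -1.48 (SE 0.23, adjusted p = 0.339 from limma). Against PCOS, Nr1d1 was called lower (adjusted p = 0.0129 from limma). Nr1d2 was at 27.5, 25.4, 39.3 and 31.1 FPKM in control and at 17.7, 11.5, 16.9 and 13.9 FPKM after MV, a difference of -0.99 (SE 0.17, adjusted p = 0.35 from limma).

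The D-box activators and Per3 lay on the same side. Dbp was at 28.2, 17.1, 46.0 and 20.4 FPKM in control, at 10.05, 4.56, 10.3 and 5.15 FPKM after MV and at 57.0, 34.4, 46.1 and 49.9 FPKM in the PCOS group. Its difference from control was -1.74 (SE 0.35, adjusted p = 0.44 from limma) in the PCOS-MV group and 0.80 in the PCOS group, so the estimates had opposite signs. Further clock genes were named after their values were seen. Per3 differed by -1.38 (SE 0.33) and Hlf by -0.63 (SE 0.15), both with no overlap with control. Per1 (-0.75, SE 0.26) and Tef (-0.56, SE 0.21) overlapped with control.

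Arntl itself lay on the other side. It was at 13.7, 19.9, 7.25 and 18.9 FPKM in the control libraries, at 21.6, 29.8, 33.1 and 28.4 FPKM after MV and at 5.24, 6.83, 6.61 and 4.55 FPKM in the PCOS libraries. The PCOS-MV values were above all control values, and the gene passed beyond the control level, by 0.95 (SE 0.29, adjusted p = 0.511 from limma), after a PCOS change of -1.15. Without Control replicate 3, the lowest control library for Arntl, the difference was 0.66. The same side held for Nfil3, a repressor at D-boxes, at 3.84, 6.29, 7.65 and 8.25 FPKM in control and 7.55, 13.8, 17.0 and 16.4 FPKM after MV. Npas2 was at 4.29 to 5.38 FPKM in control and 5.91 to 9.69 FPKM after MV, below the 10.2 to 12.7 FPKM of the PCOS group. Clock, Cry1, Cry2, Csnk1d and Csnk1e had estimates of 0.22 or less in size. The time of day at which each ovary was taken is not given in the labels, so time of day and treatment cannot be told apart here. Leaving out Control replicate 3, 4 clock genes were higher and 6 lower at an unadjusted p under 0.05.

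**Figure D2:**
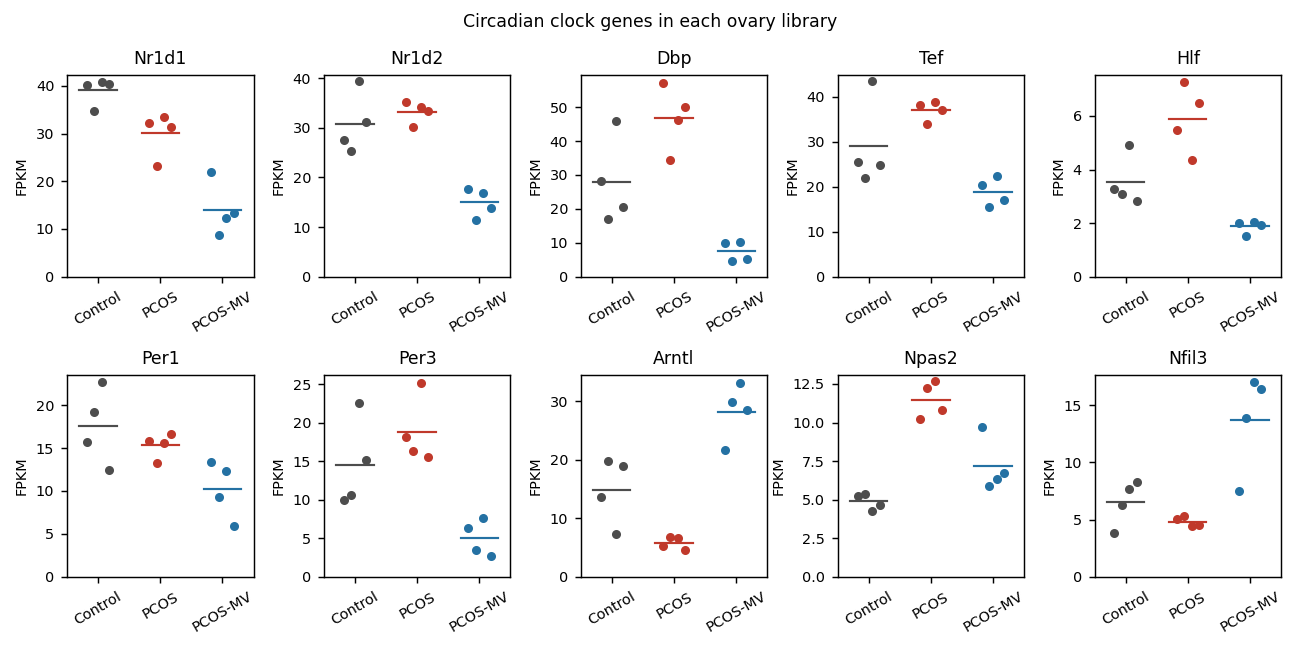
FPKM of 10 clock genes in each library, on linear axes from 0. Points are single rats (4 per group) and lines are group means. For Nr1d1 the PCOS-MV libraries (8.71 to 22.0 FPKM) lie below the control libraries (34.8 to 40.8 FPKM), and for Arntl they lie above them.

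Other genes that passed beyond control are given here. Slc10a2, which encodes a sodium-dependent bile acid transporter, was at 5.44, 11.3, 10.1 and 8.43 FPKM in the control libraries and at 17.0, 24.9, 69.3 and 25.7 FPKM after MV. All PCOS-MV values were above control, and PCOS-MV replicate 3 was far above the rest. The difference was 1.68 (SE 0.40, adjusted p = 0.462 from limma) after a PCOS change of -1.97. Gpr25, an orphan receptor gene, was at 1.93 to 5.68 FPKM in control, 7.23 to 23.5 FPKM after MV and 0.121 to 0.276 FPKM in the PCOS group. Aifm2, which encodes a protein that protects membranes from lipid peroxidation, was at 40.7, 44.5, 23.2 and 30.1 FPKM in control and at 47.5, 50.8, 50.4 and 51.0 FPKM after MV. Cthrc1, a secreted protein of matrix remodelling, was at 1.37 to 2.77 FPKM in control and at 2.98, 11.0, 2.79 and 18.1 FPKM after MV, high in replicates 2 and 4. In the other direction, the neuropeptide gene Gal (galanin) was at 3.40 to 6.73 FPKM in control, 0.715 to 2.91 FPKM after MV and 10.2 to 22.3 FPKM in the PCOS group.

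Transcripts of red blood cells lay below control after MV, with 0 of 6 tested genes called in PCOS-MV vs Control and 0 in PCOS vs Control by limma. At an unadjusted p under 0.05 all 6 were lower after MV, where 4.11% of all genes tested were, and 5 were without Control replicate 3. Groups did not overlap for 3 of them, against 2.4% of all genes tested. The hemoglobin alpha gene Hba-a2 was at 456, 383, 372 and 544 FPKM in the control libraries, at 130, 131, 262 and 126 FPKM after MV and at 391, 451, 269 and 529 FPKM in the PCOS libraries. Its difference from control was -1.49 (SE 0.25, adjusted p = 0.35 from limma) in the PCOS-MV group and -0.12 in the PCOS group. Hbb-b1, a beta globin gene, differed by -1.42 (SE 0.32) and Hba-a1 by -1.29 (SE 0.33). The globin genes are near-identical copies among which reads can be split, and they are not independent of each other. Alas2, the heme synthesis enzyme of red cells, which is no globin and was named after its values were seen, was at 1.73 to 2.59 FPKM in control and at 0.492, 0.809, 1.82 and 0.727 FPKM after MV. Summed over the 11 genes of the list found, FPKM was 1009 to 1565 in control, 332.5 to 856.5 in the PCOS-MV group and 618.8 to 1578 in the PCOS group. PCOS-MV replicate 3 was the highest of its group and PCOS replicate 3 the lowest of its own.

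Immediate early genes, which are transcribed within minutes of a stimulus, lay mostly below control after MV. Of 32 estimates 30 were negative, against 6869 of 13420 over all genes tested. In PCOS 11 were called lower, where 15.7% of all genes tested were. Of 32 tested, 8 were lower and 0 were higher at an unadjusted p under 0.05 in PCOS-MV vs Control, where 4.11% of all genes tested were lower, with none called after adjustment. Groups did not overlap for 4, where they did not for 2.4% of all genes tested. The list median was -0.49 in PCOS-MV vs Control and -0.57 in PCOS vs Control. Dusp6, a phosphatase that acts on ERK, was at 18.4, 21.2, 26.6 and 37.6 FPKM in control, at 14.4, 13.1, 10.3 and 11.2 FPKM after MV and at 6.90 to 8.41 FPKM in the PCOS group. Its difference was -0.99 (SE 0.21, adjusted p = 0.447 from limma). Gadd45b, a stress response gene, was at 8.54 to 12.1 FPKM in control and 5.57 to 7.496 FPKM after MV. Ccn2, a matricellular growth factor gene, was at 31.1, 71.8, 73.3 and 93.7 FPKM in control and at 21.8, 17.7, 45.6 and 17.1 FPKM after MV, and Control replicate 1 and PCOS-MV replicate 3 made the groups overlap. The control libraries were spread widely for this list, with means of 3.53, 3.41, 4.55 and 4.00 on the log2(FPKM + 1) scale, against 3.15 to 3.59 in the PCOS-MV libraries. Control replicate 3 was the highest, and without it 6 of the 32 were lower and the median was -0.30.

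Endothelial markers lay below control in PCOS more than after MV. In PCOS-MV vs PCOS, 11 of 23 were called higher and 1 lower by limma, against 14.4% and 10.6% of all genes tested. Of 23 tested endothelial markers, 16 were called lower in the PCOS group, where 15.7% of all genes tested were. In PCOS-MV vs Control 0 were called, where 1 of all 13420 genes was. At an unadjusted p under 0.05, 5 were lower after MV, against 4.11% of all genes tested. The list median was -0.71 in PCOS and -0.22 in the PCOS-MV group. Erg, an endothelial transcription factor, differed from control by -0.33 (SE 0.12) and Tek, the angiopoietin receptor, by -0.26 (SE 0.09). Cdh5, the adhesion protein of vessel walls, was at 25.4 to 35.0 FPKM in control and at 21.5, 23.9, 40.4 and 24.4 FPKM after MV, where replicate 3 stood above the rest. Without Control replicate 3, 2 endothelial markers were lower at an unadjusted p under 0.05.

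Of 28 collagen genes tested, 9 had a called PCOS change of at least 1, and 6 of these came back to within 0.5 of it, 1 stayed apart and 2 were undecided, where 32.7% of all 854 such genes came back. At an unadjusted p under 0.05, 3 of the 28 were lower and 0 higher than control, against 4.11% and 4.41% of all genes tested. Col14a1 stayed apart, at 3.70, 3.16, 7.68 and 3.42 FPKM in control and 1.31 to 2.11 FPKM after MV, a difference of -0.96 (SE 0.23). Without Control replicate 3 it was -0.71. The main fibrillar collagen genes Col1a1 and Col3a1 differed by -0.05 (SE 0.29) and -0.09 (SE 0.24). Fn1, which encodes fibronectin, differed by -0.40 (SE 0.13) after a PCOS change of -1.64. Of 34 matricellular and elastic fibre genes, 2 were higher and 6 lower at an unadjusted p under 0.05, against the same shares of all genes. Without Control replicate 3 the counts were 0 and 6. Sparc, an abundant collagen-binding protein, was at 376 to 473 FPKM in control and at 391.98, 505, 513 and 499 FPKM after MV.

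Genes of interferon response and antigen presentation had a median difference from control of 0.44 in PCOS and 0.06 after MV. Of 58 tested, 23 were called higher in PCOS and 0 lower, against 11.2% and 15.7% of all genes tested. In PCOS-MV vs Control 0 were called, where 1 of all 13420 genes was. At an unadjusted p under 0.05, 4 were higher and 1 lower after MV, against 4.41% and 4.11% of all genes tested. B2m, the light chain of class I molecules, was at 215 to 242 FPKM in control, at 213, 299, 249 and 194 FPKM after MV and at 456 to 544 FPKM in the PCOS group. RT1-M3-1, a class Ib gene, kept a small difference of 0.34 (SE 0.09) with no overlap, at 8.28 to 9.61 FPKM in control and 10.2 to 12.8 FPKM after MV. Class I genes of the RT1 family are alike in sequence, so reads can be split among them. Of 26 leukocyte markers, 1 was higher and 1 lower at an unadjusted p under 0.05, against 4.41% and 4.11% of all genes tested. Among them, Cd163, a scavenger receptor of macrophages, was at 4.33 to 5.17 FPKM in control and 6.10 to 11.3 FPKM after MV. Gzmm, a granzyme gene of cytotoxic lymphocytes, was at 2.27 to 2.95 FPKM in control and 1.30 to 1.92 FPKM after MV.

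**Figure D3:**
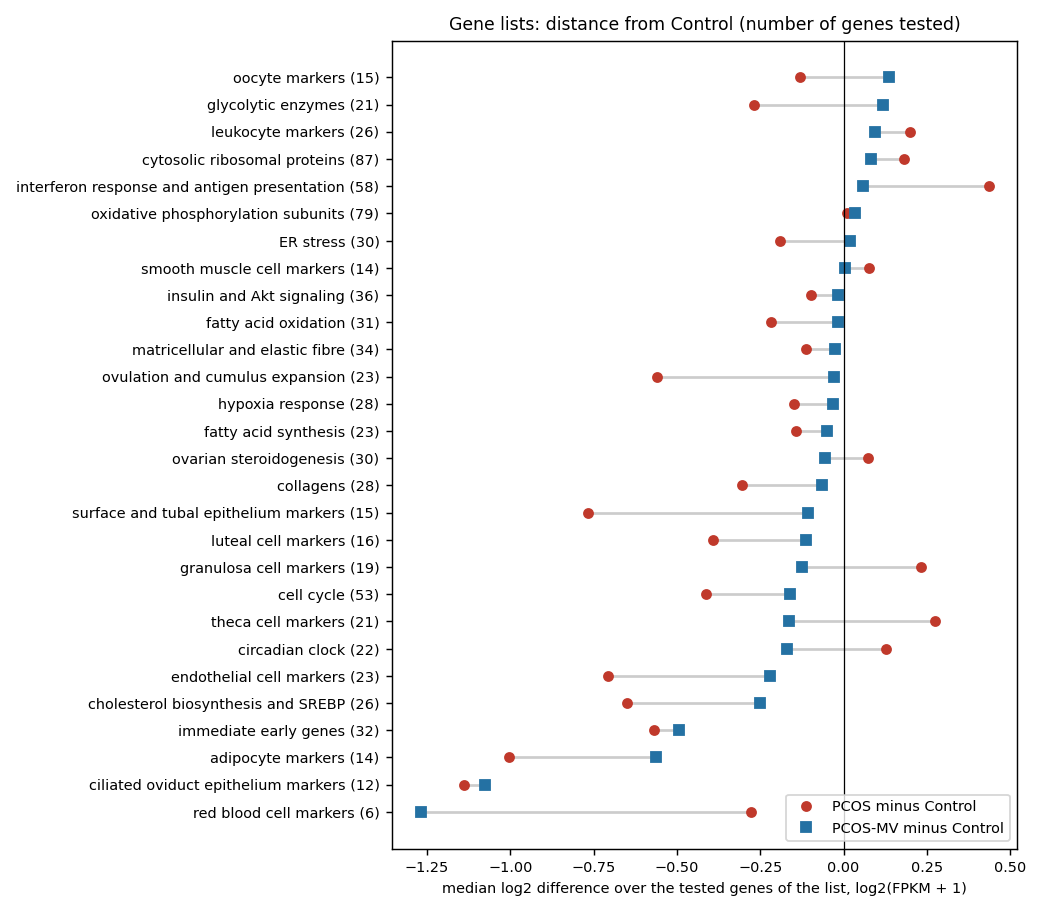
Median log2 difference from Control over the tested genes of each of 28 lists, on the log2(FPKM + 1) scale. Circles give PCOS and squares PCOS-MV, and the number of genes tested is in brackets. Red blood cell markers (-1.27), ciliated oviduct epithelium markers (-1.08, or -0.50 without Control replicate 3) and adipocyte markers (-0.56) have the lowest medians in PCOS-MV, and interferon and antigen presentation genes move from 0.44 to 0.06.

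Glycolysis, which the study singled out, had no gene lower than control at an unadjusted p under 0.05 after MV. Of 21 tested glycolytic enzyme genes, 3 were higher at that threshold, where 4.41% of all genes tested were. A positive estimate was found for 15, against 6551 of 13420 over all genes tested, and the list median was 0.12. With Control replicate 3 left out, 1 was higher. In PCOS vs Control the list median was -0.27, with 1 called higher and 5 lower, against 11.2% and 15.7% of all genes tested. In PCOS-MV vs PCOS, 9 were called higher and 2 lower, against 14.4% and 10.6%. Ldha, the lactate dehydrogenase A gene, was at 179, 154, 207 and 112 FPKM in the control libraries and at 179, 245, 131 and 255 FPKM after MV, which overlapped (log2 difference 0.30, SE 0.26). Pkm, a pyruvate kinase gene, was at 159 to 275 FPKM in control and 235 to 310 FPKM after MV (0.28, SE 0.18). Hk2, a hexokinase gene, was at 9.25 to 25.6 FPKM and 7.67 to 14.3 FPKM (-0.35, SE 0.30). Pgk1, phosphoglycerate kinase, was at 192, 183, 165 and 140 FPKM in control and at 191, 222, 215 and 235 FPKM after MV. Its difference was 0.35 (SE 0.12, adjusted p = 0.534 from limma). Gapdh, which has processed copies that can share its reads, was at 310 to 484 FPKM in control and 423 to 679 FPKM after MV (0.52, SE 0.20).

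Further lists of metabolism and growth are given by counts at an unadjusted p under 0.05. They are set beside 4.41% higher and 4.11% lower among all genes tested. The median difference was 0.03 over 79 oxidative phosphorylation genes and 0.08 over 87 cytosolic ribosomal protein genes, with 3 and 0 genes higher at an unadjusted p under 0.05, or 2 and 1 without Control replicate 3. The abundant ATP synthase gene Atp5f1b was at 573 to 724 FPKM in control and 572 to 695 FPKM after MV. Uqcr10, a subunit of complex III, was at 5.67 to 11.6 FPKM in control and 10.2 to 19.2 FPKM after MV. In fatty acid synthesis, 1 of 23 genes was higher and 1 lower, or 0 and 1 without that library. In fatty acid oxidation, 3 of 31 genes were higher at an unadjusted p under 0.05. The carnitine palmitoyltransferase genes Cpt1a and Cpt1b differed by 0.46 (SE 0.16) and 1.02 (SE 0.35), the latter at 1.61, 4.46, 1.47 and 6.48 FPKM after MV and at 0.873 to 1.15 FPKM in control. Of 36 insulin and Akt signaling genes, 2 were higher and 1 lower, or 2 and 2 without Control replicate 3. Pik3r2, a regulatory subunit of PI3-kinase, was at 12.4 to 13.6 FPKM in control and 14.8 to 19.5 FPKM after MV, with no overlap. Of 30 genes of the ER stress response, 1 was higher and 2 lower, and without Control replicate 3 the counts were 0 and 0. Of 53 cell cycle genes, 1 was higher and 5 lower at an unadjusted p under 0.05, and Cdc25b, a mitotic phosphatase, was at 6.06 to 8.81 FPKM in control and 4.15 to 5.42 FPKM after MV. Leaving out Control replicate 3, 9 of them were lower. Of 28 hypoxia response genes and 23 genes of ovulation and cumulus expansion, 2 each were lower and 0 higher. Ptger2, a prostaglandin E receptor gene, was among them, at 1.24 to 3.07 FPKM in control and 0.662 to 1.17 FPKM after MV.

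In steroid hormone synthesis, 16 of 30 genes (53.3%) had their whole 95% interval within 1 of the control level, against 88.6% of all genes tested. Of 30 tested genes of ovarian steroidogenesis, 0 were higher and 1 lower than control at an unadjusted p under 0.05, or 2 lower without Control replicate 3. Among all genes tested, 4.41% were higher and 4.11% lower. Of the 12 with a called PCOS change of at least 1, 4 came back, 0 stayed apart, 0 passed beyond and 8 were undecided, where 49.1% of all 854 such genes were. The gene that was lower was Akr1c14, an enzyme that reduces steroid ketones, at 58.5 to 105 FPKM in control and 47.4 to 70.1 FPKM after MV (-0.53, SE 0.19). Cyp17a1, which makes androgen precursors in theca cells, was at 63.6, 27.3, 17.0 and 30.7 FPKM in the control libraries and at 88.1, 1.57, 53.4 and 6.41 FPKM after MV. PCOS-MV replicate 1 was above all control values, replicate 3 above 3 of them, and replicates 2 and 4 were below all of them. Its 95% interval, from -3.33 to 1.58 on the log2 scale, held both the control level and a lower one, though all PCOS-MV values were below the 655 to 1866 FPKM of the PCOS group. Cyp11a1, which starts steroid synthesis from cholesterol, was at 2967, 2596, 1307 and 1906 FPKM in control and at 2632, 757, 1808 and 772 FPKM after MV. Star, the carrier of cholesterol into mitochondria, came back to within 0.5 of its PCOS change of -1.70, with a difference from control of -0.14 (SE 0.23).

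Cholesterol synthesis genes were also low in PCOS-MV replicates 2 and 4. All 26 tested genes had a p above 0.05, and 25 had a negative estimate, against 6869 of 13420 over all genes tested. The list median was -0.25 and the median margin was 1.02. The list mean was 6.01, 5.71, 4.77 and 5.28 on the log2(FPKM + 1) scale in the control libraries and 5.71, 4.60, 5.57 and 4.43 in the PCOS-MV libraries. PCOS-MV replicates 2 and 4 were the lowest of the 8, and Control replicate 3 the lowest of the control libraries. Without that library the median was -0.58. Msmo1, a sterol oxidase of this pathway, was at 296, 214, 76.6 and 143 FPKM in control and at 245, 63.9, 174 and 44.9 FPKM after MV.

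The same PCOS-MV libraries, replicates 2 and 4, shared high values of other genes. They had the highest correlation of their group with each other (0.978 over the genes tested). Ptprn, which encodes a secretory granule protein, was at 57.0 and 75.2 FPKM in them, at 4.30 and 1.94 FPKM in replicates 1 and 3 and at 1.73 to 4.81 FPKM in control. Timp1, an inhibitor of matrix proteases, was at 183, 375, 83.2 and 417 FPKM in PCOS-MV replicates 1 to 4 and at 78.1 to 135 FPKM in control. Igfbp4, an insulin-like growth factor binding protein gene, was at 69.3, 193, 80.1 and 202 FPKM and at 58.8 to 84.1 FPKM. Enpp2, the autotaxin gene, was at 17.0, 35.3, 16.0 and 41.9 FPKM and at 11.1 to 13.9 FPKM, so that it did not overlap with control. Btn1a1, a butyrophilin gene, was likewise highest in replicates 2 and 4, at 20.4 and 15.2 FPKM. The stage of the estrous cycle of each rat is not given in the labels, and its part was not tested.

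Markers of the ovarian cell types themselves are set beside the 4.41% of all genes that were higher and the 4.11% that were lower at an unadjusted p under 0.05. The luteal list (16 genes) had 1 gene higher (0 without Control replicate 3) and 0 lower at an unadjusted p under 0.05, and 6 of its 7 genes with a called PCOS change of at least 1 were undecided. Akr1c3 in the file, matched from the luteal progesterone-degrading enzyme Akr1c18, was at 833, 1658, 3428 and 2305 FPKM in control and at 1466, 1618, 4692 and 2210 FPKM after MV, where PCOS had 221 to 460 FPKM. Of 19 granulosa markers, 0 were higher or lower at an unadjusted p under 0.05, or 1 lower without that library, and Inha, the inhibin alpha subunit gene, was at 388 to 540 FPKM in control and 453 to 659 FPKM after MV. Of 21 theca markers, 2 were higher and 3 lower, and with Control replicate 3 left out 2 were higher and 1 lower. The higher ones, the growth factor receptor gene Pdgfra and the transcription factor gene Tcf21, had tight values: Pdgfra was at 35.3 to 39.5 FPKM in control and 42.2 to 49.8 FPKM after MV. The median of the theca list was -0.16, and 12 of its 21 estimates were negative, against 6869 of 13420 over all genes tested. Of 15 oocyte markers, 14 had a positive estimate, against 6551 of 13420 over all genes tested. At an unadjusted p under 0.05, 1 was higher, and the list median was 0.14. Without Control replicate 3 the median was 0.08 and 0 were higher. Of 14 smooth muscle markers, 0 were higher or lower. Of 15 surface and tubal epithelium markers, 1 (Lrrn4) was higher.

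The precision that 4 rats against 4 gave can be read from the margins. Over all genes tested the median margin was 0.30 on the log2 scale, and it ran from 0.17 at the 5th percentile to 0.96 at the 95th. The whole 95% interval lay within 1 of the control level for 11893 genes (88.6%). The median margin was 0.41 for genes with a mean of 1 to 2 FPKM and 0.25 for those with 10 to 50 FPKM, and it exceeded 1 for 609 genes. Within groups the median SD of log2(FPKM + 1) was 0.18 in the control group, 0.17 in the PCOS-MV group and 0.13 in the PCOS group. Among the lists, the median margin was smallest for cytosolic ribosomal proteins (0.29) and largest for ciliated oviduct epithelium (1.30), surface and tubal epithelium (1.11), cholesterol synthesis (1.02) and luteal markers (1.002). At the 1 FPKM limit, Akap6, with a mean of 1.0001 FPKM, was the named gene just inside and Aatk, with 0.9997 FPKM, the one just outside.

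**Figure D4:**
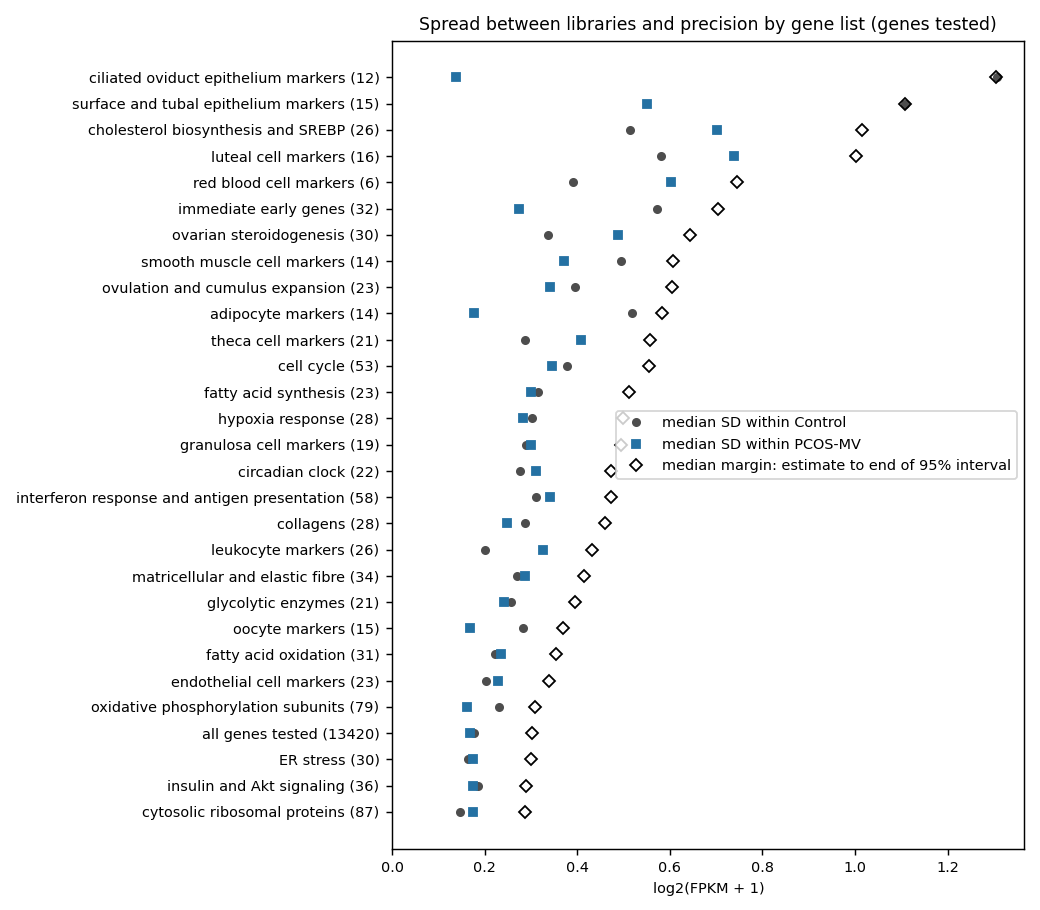
Median SD within Control and within PCOS-MV, and median margin of the difference (from the estimate to the end of the 95% interval), for each gene list, on the log2(FPKM + 1) scale. The number of genes tested is in brackets. Lists of steroid, sterol and luteal genes have margins of 0.64 to 1.02, against 0.30 over all genes tested.

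The genes with the widest spread at a mean of at least 10 FPKM included several with zero values in some libraries. The gene Rpl21 on chromosome 12 (ENSRNOG00000000957) was listed at 271, 281, 210 and 0 FPKM in the control libraries and at 158, 0, 0 and 0 FPKM after MV, while a copy on chromosome 13 was at 89.99 to 130 FPKM in all 8. Hsd3b5, Myh9, Nfs1, Vwa5a and Cd151 had values near 0 in some libraries of both or either group and above 10 FPKM in others. ATP6 was at 286 FPKM in PCOS-MV replicate 3 and below 0.1 FPKM in the other 7 libraries. Genes of oviduct secretion had their spread from 1 library. Cuzd1 was at 238 FPKM in Control replicate 3 and at 0.0666 to 3.02 FPKM in the other control libraries, and Scgb1c1 was at 198 FPKM there and at 5.30 to 7.07 FPKM in the others. Kcne2, a potassium channel subunit gene, was at 23.9 and 33.3 FPKM in Control replicates 1 and 4, at 35.1 FPKM in PCOS-MV replicate 2 and below 1 FPKM in the other libraries of both groups.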

How the data were processed

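Ovarian RNA of 12 rats was sequenced in 1 library per rat, and libraries were grouped by the treatment in the labels. Columns named MG in the table were taken as the PCOS-MV group by their sample titles. The authors' methods name HISAT2 and featureCounts for alignment and counting and give FPKM from these counts and gene lengths, whereas the submitters' processing notes name STAR 2.5.1b and HTSeq 0.6.0. Strand and genome build are not given in the sources used here, so coordinates are those of the authors' file. The deposited FPKM values were repeated over 26928 transcript lines, and 1 line per gene was kept (19730 genes, 360 of them outside the annotation, and 25 names turned into dates). Columns of the authors' own fold changes and p-values were not used.

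No count test was run, since whole fragments could be recovered for only a part of the low values. The test was limma 3.58.1 (R 4.3.3; lmFit, then eBayes with trend) on log2(FPKM + 1). Each fit held 2 groups and took no covariate. It ran on 13420 genes whose FPKM averaged 1 or more across Control and PCOS-MV. Fold changes on this scale are understated for low genes. Genes with a Benjamini-Hochberg adjusted p under 0.05 were called, and lists were described by counts at an unadjusted p under 0.05. The test was checked on simulated data with independent, normally distributed values. These held no outlying library and no correlated genes, so the check does not cover such cases. P-values weigh the difference between groups against the spread between libraries, which came 1 from each rat.

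The members, the 28 gene lists and the classes were chosen with earlier results of these data known. Of 966 list entries, 943 were found in the file, 7 of them through the RefSeq table of GRCr8. Genes were named by rule: every gene called; the 10 largest differences each way among genes with a symbol, an unadjusted p under 0.05 and no overlap; per list the 2 with the largest test statistic and the 2 highest; in each class 6 that stayed apart, 6 that passed beyond and, for return, the 4 largest PCOS changes each way; the 8 with the widest spread in each group among those averaging 10 FPKM or more; and Ldha, Hk2, Pkm and Gapdh. A few others were added after their values were seen. Alternatives were pseudocounts of 0.1 and 5, no filter or one at 5 FPKM, 1 model for 12 libraries, the replicate number as a block, library weights, a robust prior, median-ratio scaling, protein-coding genes, genes without zero values, a minimum change, and each library left out. Tables and plots were made with Python 3.11.15, pandas 2.3.3 and matplotlib 3.10.9.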

Additional observations from a re-analysis of the deposited data

Results flagged for a closer look

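Among the named genes and list means, the 4 values of a group were searched, in 360 cases, for 1 value whose gap to its nearest neighbour was above Dixon's 95% critical value. There were 31. Chance flags about 1 in 20 groups of values not chosen for their spread, which does not apply here: Rpl21, Cuzd1, Myh9, Cd151, Kcne2, Scgb1c1 and ATP6 were named for the widest spread and others for their large differences. The most were in PCOS-MV replicate 3 (9) and Control replicate 3 (8). In PCOS-MV replicate 3, Slc10a2 was at 69.3 FPKM, against 17 to 25.7 FPKM, Ccn2 was at 45.6 FPKM, against 17.1 to 21.8 FPKM and Tek was at 16.4 FPKM, against 13.3 to 13.7 FPKM in the other 3 libraries of its group. In the same library, Cdh5 was at 40.4 FPKM, against 21.5 to 24.4 FPKM, Hba-a2 was at 262 FPKM, against 126 to 131 FPKM and Vtcn1 was at 247 FPKM, against 65.7 to 87.8 FPKM in the others. There, Myh9 was at 121 FPKM, against 0 to 15.6 FPKM and ATP6 was at 286 FPKM, against 0.0795 to 0.0864 FPKM in the others. The mean of endothelial cell markers was 3.78 on the log2(FPKM + 1) scale in PCOS-MV replicate 3 and 3.46 to 3.50 in the others of its group. In Control replicate 3, Jchain was at 95.9 FPKM, against 10.2 to 11.9 FPKM, Dusp1 was at 117 FPKM, against 47.3 to 57.4 FPKM and Col14a1 was at 7.68 FPKM, against 3.16 to 3.7 FPKM in the other 3 libraries of its group. In the same library, Cfap43 was at 14.8 FPKM, against 0.128 to 2.61 FPKM, Epcam was at 32.3 FPKM, against 1.2 to 2.9 FPKM and Krt19 was at 70.8 FPKM, against 6.4 to 14.1 FPKM in the others. There, Cuzd1 was at 238 FPKM, against 0.0666 to 3.02 FPKM and Scgb1c1 was at 198 FPKM, against 5.3 to 7.07 FPKM in the others. In PCOS-MV replicate 1, Uqcr10 was at 10.2 FPKM, against 17.8 to 19.2 FPKM, Rpl10l was at 7.33 FPKM, against 4.34 to 4.82 FPKM and Sparc was at 391.98 FPKM, against 499 to 513 FPKM in the other 3 libraries of its group. In the same library, Insl3 was at 14.5 FPKM, against 4.91 to 6.27 FPKM and Rpl21 was at 158 FPKM, against 0 FPKM in the others. In Control replicate 2, Nr1d1 was at 34.8 FPKM, against 40.2 to 40.8 FPKM in the other 3 libraries of its group. In PCOS-MV replicate 4, Padi6 was at 11.2 FPKM, against 7.35 to 7.7 FPKM and Rsph1 was at 0.498 FPKM, against 0.233 to 0.26 FPKM in the other 3 libraries of its group. The mean of granulosa cell markers was 4.30 on the log2(FPKM + 1) scale in PCOS-MV replicate 4 and 4.85 to 4.94 in the others of its group. In Control replicate 1, Cd163 was at 5.17 FPKM, against 4.33 to 4.47 FPKM in the other 3 libraries of its group. In Control replicate 4, Cd151 was at 0.558 FPKM, against 51.7 to 59.7 FPKM in the other 3 libraries of its group. The mean of collagens was 4.06 on the log2(FPKM + 1) scale in Control replicate 4 and 4.31 to 4.33 in the others of its group. In PCOS-MV replicate 2, Kcne2 was at 35.1 FPKM, against 0.27 to 0.478 FPKM in the other 3 libraries of its group. The mean of leukocyte markers was 3.55 on the log2(FPKM + 1) scale in PCOS-MV replicate 2 and 3.07 to 3.14 in the others of its group.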

How the results depend on the processing

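Genes called higher numbered 0 when filtered at 5 FPKM, 0 in 1 model over all 12 libraries, 0 without genes that hold a value of 0, and 2 with library weights, while 1 gene was called lower in the model over 12 libraries and 1 with library weights. Leaving out 1 library gave 1 to 2 called higher and 0 to 4 called lower. At an unadjusted p under 0.05, library weights gave 1450 higher and 1356 lower, and the lower count was 843 with no filter and 336 from 5 FPKM. With 1 library left out these counts ran from 300 to 995 and from 303 to 949. With no minimum PCOS change, 495 genes came back, 492 stayed apart and 71 passed beyond. With log2(FPKM + 5), 75 stayed apart and 5 passed beyond, and with log2(FPKM + 0.1) 17 passed beyond. Library weights gave 347 and 45. With 1 library left out, 229 to 289 came back, 115 to 287 stayed apart and 9 to 30 passed beyond. The cause of these shifts was not tested.

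With the replicate number as a block, 0 genes were called higher, 618 were higher and 625 lower at an unadjusted p under 0.05, and 21 passed beyond. What the replicate numbers stand for is not given in the labels. Deviations of same-numbered libraries correlated at 0.217, -0.056, 0.049 and 0.080, and those of libraries with unlike numbers at -0.203 to 0.203. These few values cannot decide whether libraries were paired, which was not tested. Over the 152 named genes, 1976 refits gave 0 reversals, and Senp1 lost its call in the block (adjusted p = 0.118 from limma) and the 12-library model. Of 280 refits of list medians, 4 moved. Depth could not be recovered exactly from FPKM, so no counting limit is given for low genes. The counts of list genes without Control replicate 3 were added after the data were seen.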
